A study of Mus musculus with 2 samples.

Results

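The ubiquitin-specific proteases (USPs) are the largest family of deubiquitinases, the enzymes that take ubiquitin off proteins. A protein tagged with a ubiquitin chain by E1, E2 and E3 enzymes is usually sent to the proteasome, and a USP can trim or remove the chain before that happens, or recycle ubiquitin once it has. Other members act on ubiquitin that serves as a signal on histones, receptors, DNA repair factors or mitochondria. In skeletal muscle the balance between ubiquitin ligases and deubiquitinases bears on protein loss during wasting, in which the ligases atrogin-1 (Fbxo32) and MuRF1 (Trim63) are the best known markers.

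USP genes were taken as every gene name on the arrays that starts with Usp and a number, leaving out Usp18. This gave 51 members, read by 78 probes, of 34739 gene names and 55680 probes in all. RNA of skeletal muscle from 11-week-old male mice of the CD2F1/Slc strain was hybridised to 2 single-colour arrays, 1 per group. The control mice had 100 µL of PBS injected; in the C26 group 1000000 cells of the colon 26 carcinoma, a mouse tumour line used as a model of cancer cachexia, were placed under the skin in 100 µL of PBS. The sources used here do not name the muscle, the time after implantation, or whether several mice were pooled. With 1 array per group there was no spread between animals to compare against, so no test was run, and every difference given is between this pair of arrays.

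Each signal is the scanner software's processed spot intensity, in arbitrary units and before scaling. Each log2 ratio is C26 minus control after each array was divided by its own 75th percentile, which was 262.3 for the control and 249.5 for C26, so equal signals give a log2 ratio of 0.07. A gene was read from its brightest probe and is called measured if both arrays had that probe well above background. The error beside a ratio is the scanner software's own and reflects spots only, not animals; over all measured genes it had a median of 0.20. Signals of different probes depend on the probe as well as on the transcript, so no level is set against that of another gene.

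Of the 51 USP members, 40 were measured on both arrays. Usp53 was well above background in C26 but not in the control. The other 10 members, Usp9y, Usp17l5, Usp26, Usp27x, Usp29, Usp35, Usp43, Usp44, Usp49 and Usp51, were not well above background on either array, and their 15 probes had control signals of 3.82 to 13.3 and C26 signals of 2.87 to 16.8. Among them are genes known from the germ line or the Y chromosome (Usp9y, Usp17l5, Usp26, Usp29). The dimmest probe still well above background had a signal of 18.5 in the control and 14.1 in the C26 hybridisation. These are not detection limits, since Usp53 at 21.4 in the control and Usp27x at 16.8 in C26 were not well above background.

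Markers of the labelled tissue were present: all 9 myofibre genes listed were measured, with a median log2 ratio of 0.04 and summed signals of 1753869.8 on the control and 1727653.7 on the C26 array. Markers of other cell types differed between the arrays. Summed signals of erythroid markers (5 of 9 on the array measured) were 314764.4 and 538130.8, of endothelial markers (9 of 9) 27544.0 and 35397.4, and of adipocyte markers (7 of 7) 27553.1 and 34670.9, each higher in C26. The erythroid sum was mostly Hba-a2 (215217.7 and 294452.5) and Hba-a1 (94219 and 231932). The adipocyte sum was mostly Fabp4 (22734 and 28304). Of the adipocyte markers 5 had log2 ratios above 0 and 2 below, Lep at -0.66 and Plin1 at -0.04. Fibroblast markers (8 of 8 measured) summed to 157028.5 and 100233.7 and macrophage markers (10 of 12) to 14841.9 and 11418.8, lower in C26. The fibroblast sum was mostly Dcn (107643 and 81772). In each of these 2 lists 1 marker was above 0, Ly6a at 0.48 and Mertk at 0.22. Neutrophil markers (4 of 8 measured) went both ways. S100a8 and S100a9 had log2 ratios of 2.46 and 2.35, and Camp and Csf3r had -0.02 and -0.26. The neutrophil sum, 33471.5 and 27736.4, was mostly Csf3r (33121 and 26235), so it does not show the rise of S100a8 and S100a9. Lymphocyte markers (5 of 8) summed to 4032.1 and 4237.3, mostly Cd4 (3141 and 3485), with a median log2 ratio of -0.08. They went both ways, 2 above 0 and 3 below, with Gzma at -1.07 and Cd79b at -0.64. Schwann cell markers (6 of 6) summed to 6560.3 and 5773.8 with a median of -0.0028. Of 8 epithelial or carcinoma markers 5 were measured, with summed signals of 804.5 and 1006.5, and Epcam was not well above background at 4.89 and 3.49. The measured ones went both ways, 3 above 0 and 2 below, with Lgals4 at 0.58, Cldn7 at 0.53 and Krt19 at -0.84. In a tissue extract fewer cells of a type and less RNA per cell cannot be told apart, and the part these cell types have in the USP values was not tested.

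The USP genes as a family stood close to their control levels. The median log2 ratio of the 40 measured members was 0.12, against 0.04 over all 19665 measured genes, and members ran from -0.25 to 0.64. There were 26 members (65%) above 0, beside 56.5% of all measured genes, and 14 below 0. Only Usp54 was at least 1.5-fold higher in C26, 2.5% of the measured members beside 4.37% of all measured genes. No member was at least 1.5-fold lower, beside 4.82% of all measured genes, and in either direction the background was 9.18%. None was 2-fold higher, beside 1.25%, or 2-fold lower, beside 1.14%, for a background of 2.39% in both directions together.

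The spread between members was narrow. The middle 50% of USP ratios lay between -0.05 and 0.18, against -0.15 to 0.22 for all measured genes. The standard deviation across members was 0.19 against 0.38. The sets were not matched for signal. Signals of at least 50 on both arrays were held by 38 of the 40 members and by 16503 of the 19665 genes. The part of dim probes in the wider spread of all genes was not tested. Read at the brightest probe, 36 of the 40 members (90%) were within 1.2-fold of control, compared with 63.5% of all measured genes. At that probe, ratios larger than 2 times their spot error were found for 2 members, Usp54 and Usp46. This is 5% of the members beside 15.8% of all measured genes. Second probes of Usp13, Usp14 and Usp36 also passed 2 times their errors and 1.2-fold, with ratios of 0.40, 0.50 and 0.43.

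**Figure D1:**
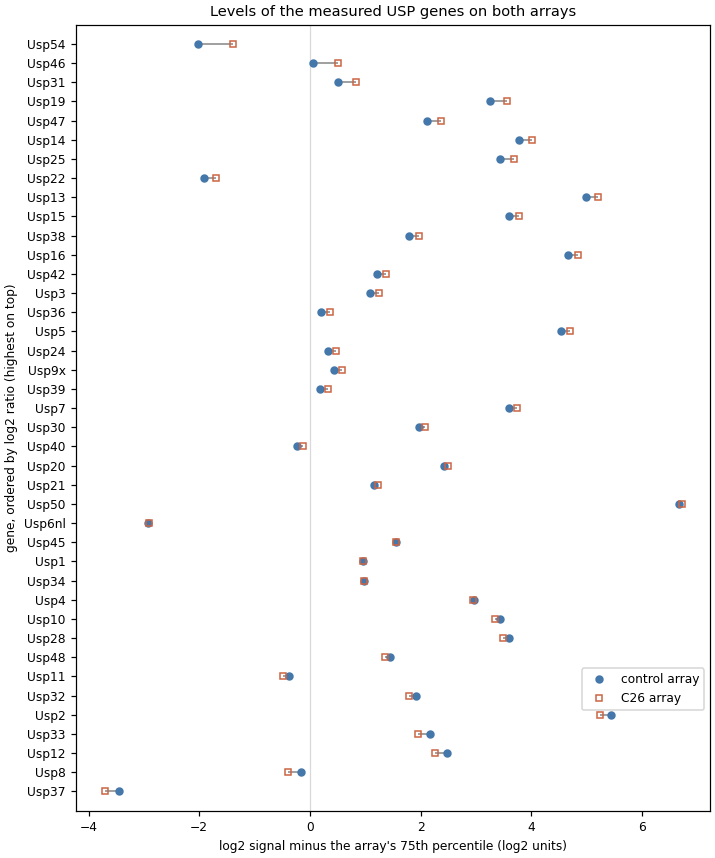
Scaled level of each of the 40 measured USP genes on the control array (filled circles) and the C26 array (open squares), in log2 units relative to the array's 75th percentile, with genes ordered by their log2 ratio. The pairs of symbols lie close together for nearly all genes, with the widest gap at Usp54, and the levels span from Usp37 at signals of 24.0 and 19.2 to the probe named Usp50 at 26792 and 26163; the horizontal position depends on the probe and does not rank the genes.

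Usp54 had the highest ratio of the 40 members measured on both arrays. It belongs to a pair of USPs, with Usp53, that were long listed as lacking deubiquitinase activity. Its brightest probe had a signal of 64.2 on the control array and of 94.8 in C26, a log2 ratio of 0.64 (error 0.24) or 1.55-fold. A second Usp54 probe spans 12498 bases of the genome and so crosses an exon junction. It had 4.58 in the control, not well above background, and 25.5 in C26. With the control set to that array's dimmest signal well above background, C26 was 1.45-fold higher, which is not a strict minimum. Both probes were higher in C26. The brightest probe's ratio depended on how background was treated: with normexp correction and an offset of 50, which draws the ratios of dim probes toward 0, it was 0.29, and it was 0.58, just under 1.5-fold, when the 75th percentile was taken over bright probes alone.

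The probe pair is shown because the brighter probe holds a simple repeat, given in capitals, and the second does not. Each line gives 30 bases of a 60-base probe, bases 13 to 42 of the brightest probe (chr14:21368868-21368927, mm9, minus strand) and bases 1 to 30 of the second (chr14:21410786-21423283, mm9, minus strand), read 5′ to 3′ from the array design:
Usp54 brightest probe: gactgtttGTTGTTGTTGTTGTTttgtttt
Usp54 second probe: tgctctcaagggcatctttaaccagtttca
The run of 5 GTT units occurs in 8 probes of the array. The 7 probes of other genes that hold it were all measured, and their log2 ratios ran from -0.02 to 0.19 with a median of 0.16. None of them was 1.5-fold different. The part of the repeat in the Usp54 value was not tested. The brightest probe also shares runs of 20 bases with probes of 4 other names. The probe named 4921513D23Rik, on the same strand, had signals of 376 and 400 and a log2 ratio of 0.16, and the other probes match on the opposite strand and had signals of 4.08 to 12.9.

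Usp53, the closest relative of Usp54 and a gene of tight junctions and hearing, had a control signal of 21.4 and a C26 signal of 32.2. The control value was not well above background, so the log2 ratio of 0.66 (error 0.38), or 1.58-fold, is uncertain. This ratio was within 2 times its error. The control signal exceeded that array's dimmest signal well above background, so the bound for Usp53 equals the ratio and is not a strict minimum. Among the 1462 genes measured on the C26 array alone, 251 (17.2%) had a bound of at least 1.5-fold. Usp53 rests on 1 probe (chr3:122636735-122636794, mm9, minus strand), whose first 30 bases are shown because the probe carries no repeat of the Usp54 kind:
Usp53 probe: cattaactacctatttctcagttgatagtt

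The other members listed with little or no deubiquitinase activity differed less. Usp39, a splicing factor of the spliceosome that lacks the catalytic residues, had a log2 ratio of 0.14. Usp6nl is not a protease: it is a GTPase-activating protein for Rab proteins, named for its likeness to part of USP6, and it had signals of 34.5 and 33.1 and a ratio of 0.01 (error 0.29). The Usp50 value is uncertain for another reason, the sequence of its probe.

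The brightest probe named Usp50 had a control signal of 26792 and a C26 signal of 26163, with a ratio of 0.04. It lies at chr2:126534918-126534977 (mm9, minus strand), 68854 bases from the other Usp50 probe (chr2:126603832-126605713, mm9, minus strand), whereas the RefSeq gene is 22411 bases long. Of its 60 bases, 54 are identical to a probe for Polr2l, a small subunit shared by RNA polymerases, at chr7:148659029-148659088 (mm9, minus strand). The last 30 bases of both probes are shown to display the match, with capitals for bases inside the shared run, followed by the first 30 bases of the second Usp50 probe, which shares no such run:
Usp50 brightest probe: AGTAAAGATGTTTGCAGAACCACCaaaaaa
Polr2l probe: CTGTTTAGTAAAGATGTTTGCAGAACCACC
Usp50 second probe: agttcctgatttacgtcctcaacgagcttc
The Polr2l probe had signals of 27450 and 29210 and a log2 ratio of 0.16. The second Usp50 probe was not well above background on either array, with signals of 4.60 and 3.27. The brightest probe therefore cannot be read as Usp50 alone, and without it and Usp6nl the family had 38 measured members, a median of 0.14 and 24 members above 0, with the same single member past 1.5-fold.

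The 3 enzymes grouped under the proteasome and free ubiquitin chains all had ratios above 0, where 56.5% of all measured genes also lay. Usp14, which docks on the proteasome and trims chains from its substrates, had signals of 3576 and 4041 and a ratio of 0.25 (error 0.20). Its second probe had 178 and 240, a ratio of 0.50 (error 0.21), so both were higher in C26 but differed in size. Usp5, which takes apart unanchored ubiquitin chains, had 6114 and 6442 and a ratio of 0.15 (error 0.20), within its spot error. Usp13, a close paralog of Usp5, had 8341 and 9206 and a ratio of 0.21 (error 0.20). The median of these 3 genes was 0.21, and it stayed above 0 under all 6 other scalings, at 0.10 or more.

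A second Usp13 probe is printed in 10 copies on each array, which gives a measure of technical spread. Its copies had signals of 3329.4 at the lowest, 3505.9 at the median and 3610.4 at the highest in the control. In C26 they had 4161.2, 4387.8 and 4545.6. The 2 sets of copies did not overlap, and the ratio was 0.40 (error 0.06), with a standard deviation between copies of 0.04 on each array. The arrays hold 273 measured probes with at least 8 copies, and how many of them separate in this way was not counted. Whether Usp13 stands out among them is therefore not known. Copies on an array share 1 RNA sample, so this spread says nothing about animals. The other USP probe printed in this way is that of Usp20, whose protein deubiquitinates the beta-2 adrenergic receptor and HIF1A; its copies ran from 1369.4 over 1414.9 to 1456.2 in the control and from 1335.4 over 1405.3 to 1465.6 in C26. These copies overlapped, and the scaled ratio was 0.07 (error 0.06). Both genes were singled out for their number of copies.

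**Figure D2:**
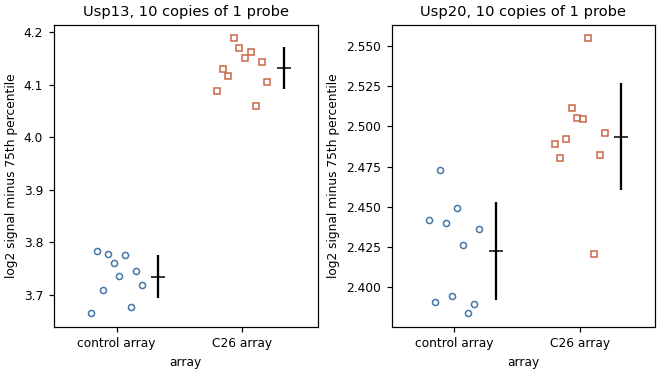
Scaled log2 level of each of 10 printed copies of 1 Usp13 probe (left) and 1 Usp20 probe (right) on the control array (circles) and the C26 array (squares); horizontal ticks are means and vertical bars standard deviations over copies, and the vertical scales of the panels differ. The Usp13 copies form 2 separate groups, with means of 3.73 and 4.13, while the Usp20 means are 2.42 and 2.49.

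The enzymes of organelle membranes are Usp19 and Usp30. Usp19 is anchored in the membrane of the endoplasmic reticulum; in rats it has been reported to increase in wasting muscle, and mice without it to lose less muscle. It had signals of 2502 on the control and 2933 on the C26 array and a ratio of 0.30 (error 0.20). A second Usp19 probe gave 612 and 626, a ratio of 0.10. Both probes were on the same side of 0, and neither ratio exceeded 2 times its error. Usp30, which sits on the outer mitochondrial membrane and opposes Parkin-driven removal of mitochondria, had 1021 and 1048 and a ratio of 0.11 (error 0.20), within its spot error.

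Deubiquitinases of histones and transcription were mostly just above 0. Of the 12 listed, 8 were measured, 7 of them above 0, beside 56.5% of all measured genes, with a median of 0.15. Usp22, the protease of the SAGA coactivator complex, was dim, with signals of 69.7 and 77.3 and a ratio of 0.22 (error 0.23). Usp16 and Usp3, which act on ubiquitinated histone H2A, had ratios of 0.17 and 0.16, and their second probes gave 0.18 and 0.30. Usp36, a nucleolar enzyme, had 0.15 and, at its second probe, 0.43. Usp42 stood at 0.16 and Usp21 at 0.06. Usp7, the regulator of Mdm2 and p53, had signals of 3179 and 3329 and a ratio of 0.14, while its second probe, at 228 and 203, gave -0.09; the sign of Usp7 therefore depended on the probe. Usp11 was the member below 0, with signals of 201 and 178 and a ratio of -0.10.

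The group of DNA repair and cell cycle enzymes held both ends of the family apart from Usp54. All 9 were measured, 3 above 0 and 6 below, and the median was -0.01. Usp46 and Usp12 are close paralogs, and both are activated by the WD-repeat proteins Wdr48 and Wdr20. Usp46 had signals of 273 on the control and 355 on the C26 array, a ratio of 0.45 (error 0.21), the second highest measured. Usp12 had 1460 and 1190, a ratio of -0.22 (error 0.20) and was among the 3 lowest. The paralogs thus lay on opposite sides of 0, with a difference of 0.68 (error 0.29) between their ratios, and this pair was singled out after its values were seen. The first 30 bases of each probe are shown as the transcripts the paralogs were read from, Usp46 at chr5:74396489-74396548 and Usp12 at chr5:147546439-147546498 (mm9, both minus strand), and no run of 20 bases of either is shared with a probe of another name:
Usp46 probe: gccatcgtgcagcagtgaagaggatagcac
Usp12 probe: ggattaattagagaggaagtctgtaaagca
Under the other scalings Usp46 ranged from 0.37 to 0.43 and stayed the higher of the pair.

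Usp1, also bound by Wdr48, removes ubiquitin from FANCD2 and PCNA and has been reported in mice to act on Akt in muscle during starvation. It had signals of 513 and 485 and a ratio of -0.01 (error 0.20). Usp47, which acts on DNA polymerase beta, had 1137 and 1292 and a ratio of 0.26 (error 0.20), within 2 errors of 0. Usp37, an enzyme of cyclin A, had the lowest ratio of the family, -0.25, but it was near background at signals of 24.0 and 19.2, and its error was 0.37. Under normexp correction Usp37 stood at -0.06. Usp48, a nuclear deubiquitinase of histone H2A, gave 718 and 638 and a ratio of -0.10 at its brightest probe, and -0.03, 0.02 and 0.17 at the other 3, so its sign was not settled. Usp24, Usp45 and Usp28, which act on DNA damage factors or on Myc, stood at 0.14, -0.01 and -0.10.

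Enzymes of receptors, endosomes and signalling were spread on both sides of 0. Of 14 listed, 13 were measured, 6 above 0 and 7 below, with a median of -0.01 and a range of -0.23 to 0.32. Usp31, linked to NF-kB signalling, had signals of 373 and 443 and a ratio of 0.32 (error 0.21), but its other probes gave 0.05 and -0.34. The mean over the 3 Usp31 probes was 0.01. Usp25, of which a muscle isoform is known, had 2846 and 3195 and a ratio of 0.24 (error 0.20), and its second probe gave 0.30. Usp15 and Usp4, paralogs that act on the TGF-beta receptor pathway, stood at 0.19 and -0.03.

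At the lower end, Usp8, which works on the endosome and spares receptors such as EGFR from lysosomal breakdown, had signals of 234 and 189 and a ratio of -0.23 (error 0.21). Its probe shares 20 bases, on the opposite strand, with a probe for Ulk3 whose ratio was 0.28. Usp33, a relative of Usp20, had 1182 and 964 and a ratio of -0.22 (error 0.20). Usp2, a deubiquitinase of clock proteins whose own transcript cycles with the clock, had 11405 and 9453 and a ratio of -0.20 (error 0.20), between -0.31 and -0.20 under all scalings. Usp32 had 987 and 866 and a ratio of -0.12. All of these were lower in C26 by less than 1.2-fold and by less than 2 times their errors. The rest of the group, Usp38, Usp9x, Usp34 and Usp10, lay between -0.09 and 0.18. Usp40, placed in no group by role, stood at 0.10 and its second probe at 0.13.

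**Figure D3:**
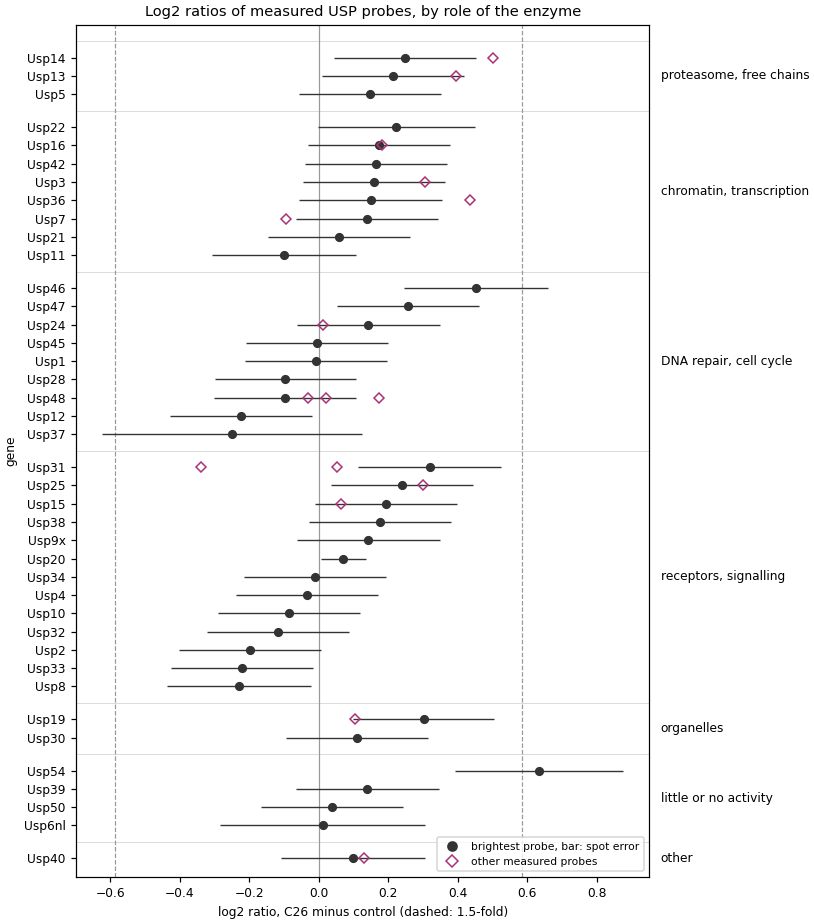
Log2 ratio (C26 minus control) of every measured USP probe, with genes grouped by role: filled circles are the brightest probe with the scanner's spot error as a bar, open diamonds are other measured probes of the same gene, and dashed lines mark 1.5-fold. Only Usp54 lies past a dashed line; Usp31, Usp7 and Usp48 have probes on both sides of 0.

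Different probes of a gene were as close for USPs as elsewhere on the array. Of the 13 members with several measured probes, 10 had all probes on the same side of 0 and 3 (23.1%) did not, beside 35.8% of the 5118 genes with several measured probes. The median absolute difference between the brightest and the second probe was 0.15 for USP members and 0.14 for all such genes, and the largest for a USP member was 0.28. A difference of that size is comparable to most of the USP ratios themselves.

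Genes that work alongside USPs covered much the same range, from -0.23 to 0.68 against -0.25 to 0.64 for USP members. Their standard deviation was larger, 0.26 against 0.19. Of 20 partners of USP enzymes, all measured, 15 (75%) were above 0, beside 56.5% of all measured genes. The median was 0.15, with 3 past 1.5-fold upward, beside 4.37% of all measured genes, and none downward, beside 4.82%. Hgs, the endosomal sorting protein that holds the Stam partners of Usp8, had signals of 3003 and 4563 and a ratio of 0.68 (error 0.20), whereas Stam2 itself had 220 and 183 and -0.19. Psmd2, the proteasome subunit on which Usp14 docks, had 14439 and 21238 and a ratio of 0.63 (error 0.20); the other partner past 1.5-fold was the ubiquitin receptor Psmd4 at 0.61. The lowest partner was Atxn7l1, of the SAGA ataxin family, at -0.23. Named after their values were seen, the activators of Usp12 and Usp46 had ratios of 0.38 (Wdr48), 0.20 (Wdr20) and 0.42 (its paralog Dmwd).

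A further list held deubiquitinases outside the USP members (UCH, OTU, Josephin, MINDY, ZUFSP, JAMM and CYLD) and related genes such as Cops5, Pan2 and Uspl1. It gave a median of 0.06 over 37 measured genes of 40. Of these, 2 were at least 1.5-fold higher and 1 lower, beside 4.37% and 4.82% of all measured genes. Otub2 had signals of 785 and 1404 and a ratio of 0.91 (error 0.20), and Otud1 had 115 and 174 and 0.67 (error 0.21). Tnfaip3 (A20), a brake on NF-kB, was the lowest at 339 and 149 with a ratio of -1.12 (error 0.21). Uchl1, a neuronal enzyme, had -0.34 (error 0.32). None of the 40 measured USP genes reached the ratios of Otub2 or Tnfaip3. The ubiquitin genes and E1 enzymes had a median of 0.11 over 10; Ubb, a ubiquitin gene, had a ratio of 0.52, and the lowest were Uba7 at -0.42 and Uba3 at -0.40. The median of that list lay between -0.0032 and 0.11 over the scalings.

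The atrophy ubiquitin ligases, which act opposite to deubiquitinases, had a median of 0.11 over 13 genes, with 3 past 1.5-fold upward and none downward, beside the same background. Fbxo32 (atrogin-1) had signals of 1484 and 8420, a ratio of 2.58 (error 0.06), and Trim63 (MuRF1) had 11154 and 35778, a ratio of 1.75 (error 0.20). The remaining gene past 1.5-fold was Fbxo21 at 0.60, and the lowest were Fbxo30 at -0.31 and Fbxo40 at -0.14. The list of FoxO and glucocorticoid targets also holds the regulators Foxo1, Foxo3, Foxo4 and the glucocorticoid receptor gene Nr3c1. It stood at a median of 0.75 over 23 genes. Of these, 13 were at least 1.5-fold higher, Foxo1 among them, and none lower, beside that background. The highest were Fkbp5 at 2.37 and Pdk4 at 2.26, and Bcl6 was the 1 gene below 0, at -0.27. Clock genes, listed because Usp2 is among their outputs, had a median of -0.05 over 18 with 4 at least 1.5-fold higher and 4 lower, from Nr1d1 at -2.06 and Ciart at -2.03 to Arntl at 1.34 and Nfil3 at 1.81. Next to these the Usp2 ratio of -0.20 was small, and the sources used here do not give the hour of dissection.

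**Figure D4:**
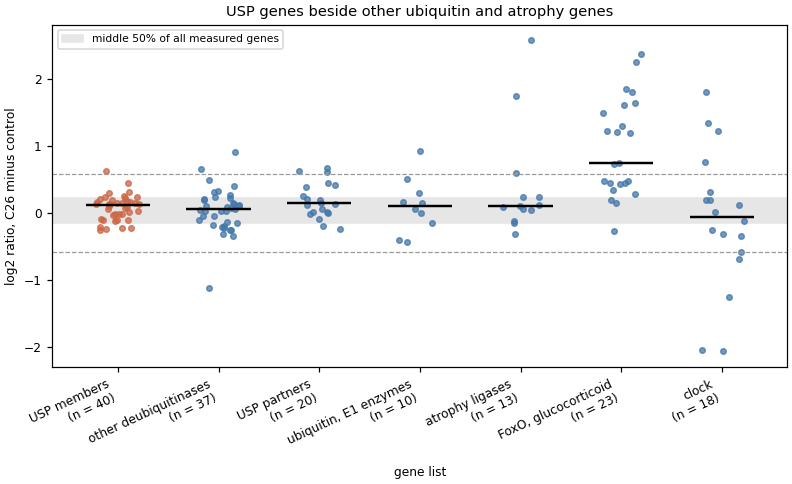
Log2 ratio (C26 minus control) of each measured gene in the USP family (left) and in the 6 lists set beside it; each point is 1 gene, horizontal lines are medians, the grey band is the middle 50% of all measured genes and dashed lines mark 1.5-fold. The USP points stay between -0.25 and 0.64, while single genes of the atrophy ligase, FoxO and glucocorticoid, and clock lists lie beyond 1.5 on the log2 scale.

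Promoters of USP genes were searched for motifs in the RefSeq sequence of GRCm38.p6, from 250 bases before to 50 after each start, on both strands and without removing overlaps between motifs. The table held 40 promoters for 39 members. The forkhead motif GTAAACA was in 0 of them, beside 3.65% of all 32851 promoters, and the E-box CACGTG was in 5 (12.5%), those of Usp4, Usp6nl, Usp16, Usp31 and Usp32, beside 7.15%. GC boxes (GGGCGG) were in 28 (70%) beside 35.7%, and the CCAAT box in 10 (25%) beside 37.4%. The median GC content was 65.0% for USP promoters and 52.7% for all. These are matches of letters in a window and were not set against the ratios.

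Across 7 scalings of the arrays the family median lay between 0.05 and 0.12, highest with the 75th percentile scaling used here and lowest with quantile normalization, and 24 to 26 members were above 0. Of the 40 measured members 38 kept their sign under every scaling, and the 2 that did not were Usp6nl and the probe named Usp50.

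**Figure D5:**
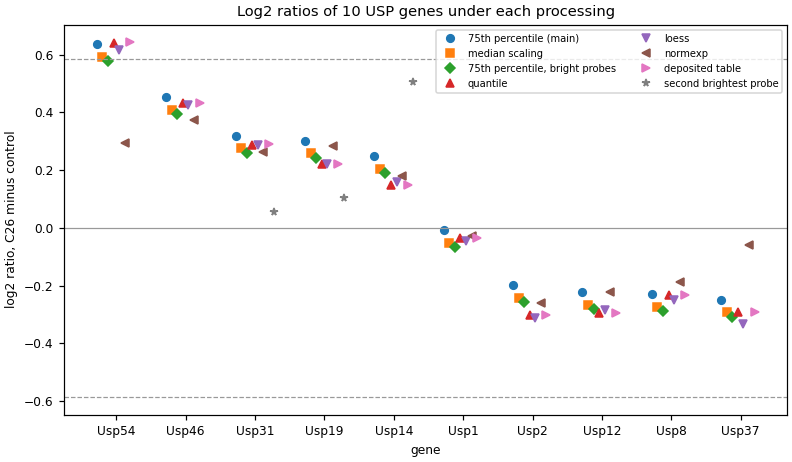
Log2 ratio (C26 minus control) of 10 USP genes (Usp54, Usp46, Usp31, Usp19, Usp14, Usp1, Usp2, Usp12, Usp8 and Usp37) under each way of scaling or background correction (coloured symbols) and, where measured, at the second brightest probe (grey stars); dashed lines mark 1.5-fold. Points of a gene cluster on 1 side of 0, and the widest departures are Usp54 under normexp correction, at 0.29, the second probe of Usp31, at 0.05, and the second probe of Usp14, at 0.50.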

How the data were processed

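Total RNA of skeletal muscle was labelled with Cy3 and hybridised to 2 arrays, per the labels. Per the file headers the deposited scanner values are spot intensities from Agilent Feature Extraction 10.7.1.1 (the submitters' processing notes list 9.5.1.1), with background subtracted and a surrogate for spots too low to measure, 31.9% of spots on the control and 25.6% on the C26 array, so low signals are imprecise. No spot was saturated; both arrays shared a slide and scan. Outlier spots were left out (110 and 91), spots of a probe averaged on the log2 scale, and each array's 75th percentile subtracted. Of 55680 probes 31399 were named through RefSeq (GRCm38.p6) and the others as in the files; probe positions are mm9. For a bound, the dim side was set to the probe's signal or the dimmest reliable signal of that array, whichever was higher. A bound is not a strict minimum, as some probes above the dimmest reliable signal were not well above background. Values are given for the 8 highest and 8 lowest members, those past 1.5-fold, those with reports in wasting or the clock and those whose probes disagree, others in brief; of each list, for its 2 highest and 2 lowest genes, of which 1 is not reported here. Members and lists were chosen with earlier results of these data known. Exon and UTR annotation of probes was not used here. Alternatives included normexp, quantile and loess (limma 3.58.1, R 4.3.3), median scaling, dim-probe filters, other probes and the authors' deposited intensity table. Calculations used Python 3.11.15, and the procedure was tested on simulated data.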

Additional observations from a re-analysis of the deposited data

How the results depend on the processing

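The family median kept its sign under all alternatives, and among 18 named members tried under 167 alternatives the sign changed for Usp7 with its second probe and for Usp48 with the mean of its probes (0.02). In all, 5 ratios moved by more than their spot error: Usp54 to 0.29 with normexp correction, Usp31 to 0.01 with the mean of its probes and 0.05 with its second probe, Usp14 to 0.50 and Usp7 to -0.09 with their second probes. The count of USP members at least 1.5-fold higher was 0 with normexp correction and with the 75th percentile over bright probes. With no filter on dim probes 4 members were 1.5-fold higher and 1 lower, and 1 was 2-fold higher and 1 lower; those added were Usp53, Usp27x, Usp43 and Usp44, with spot errors of 0.38, 0.84, 1.51 and 1.55. The median of all measured genes was -0.0018 with median scaling, -0.0165 with the 75th percentile over bright probes, -0.0031 with quantile normalization, -0.0129 with loess, -0.0027 in the deposited table and -0.0346 with no filter. Of all genes, normexp correction left 434 at least 1.5-fold higher and 406 lower, and 131 and 65 at 2-fold; with no filter these were 3495 and 2854, and 1579 and 1315; a stricter filter (signal of at least 50) left 593 lower at 1.5-fold and 138 at 2-fold. Fewer or more genes enter under the filters; for the other settings the cause was not tested. The values without Usp6nl and the Usp50 probe were added after seeing the data. No paired analysis was possible because each group held 1 array. Spot errors near 0.20 limit what a single spot can show, and differences between animals could not be estimated. Copies of a probe within an array spread less than the scanner's error. Over 273 measured probes with at least 8 copies, the median standard deviation was 0.07 in the control and 0.06 in C26. That gives 0.09 for a ratio of single spots, a value from copies within each array only.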
